A study of Mus musculus with 6 samples.

Results

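The endoplasmic reticulum (ER) folds, glycosylates and quality-checks the proteins that a cell secretes or places in its membranes. The 31 mouse genes described here encode parts of that machinery: lumenal chaperones, disulfide isomerases, lectin chaperones, sensors of the unfolded protein response (UPR), the degradation apparatus, and the translocation channel with its TRAP partner complex. Membership was set by gene name and function, and the genes are 31 of 18749 genes listed in at least 1 library. RNA-seq libraries were made from cultured OPCs (oligodendrocyte progenitor cells), which divide and can mature into the myelin-forming cells of the brain. The progenitors came from cortex of wild-type C57BL/6 mouse pups, labelled as postnatal day 1, were isolated with magnetic beads against the surface receptor CD140 (PDGFRα), and were expanded for 3 days. The hemin group (3 libraries) received 50 µM hemin, an oxidised iron-containing form of heme, for 12 h. The vehicle group (3 libraries) received 0.25% DMSO for the same time, and the labels do not say whether the hemin wells held DMSO too. Separate cultures or litters are not stated for the replicates, so each p-value reflects how far these libraries spread, and that spread may be technical.

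As background, a nascent secretory protein enters the ER through the Sec61 channel and is folded there by the Hsp70 and Hsp90 family chaperones BiP and GRP94, by disulfide isomerases, and by the lectins calnexin and calreticulin. Proteins that do not fold are drawn out through a membrane ubiquitin ligase complex and destroyed by the proteasome, a route called ER-associated degradation (ERAD). When unfolded protein builds up, the sensors IRE1, ATF6 and PERK start the UPR, in which IRE1 splices the Xbp1 mRNA, ATF6 is cut free as a transcription factor, and PERK slows translation while favouring that of ATF4. Oligodendrocyte lineage cells make large amounts of membrane protein and lipid for myelin, and the UPR has been studied in them in demyelinating disease.

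All 31 genes passed the filter on low counts, which 12782 genes passed in all. With hemin, 10 of the 31 genes (32.3%) rose and 0 fell, by edgeR's quasi-likelihood test at a Benjamini-Hochberg adjusted p below 0.05. Across all genes tested, 31.9% were called, 16.2% higher and 15.7% lower. The share of these genes called in either direction was therefore close to that of all genes, while the calls lay on the higher side. The median log2 fold change was 0.22 over the 31 genes and 0.00 over all genes tested, and 22 of the 31 log2 fold changes were positive. At an unadjusted p below 0.05, 13 of the genes were higher and 1 was lower, DESeq2 called 11 higher and 1 lower, and limma on log2(FPKM + 1) called 8 higher and 1 lower. On the log2 CPM scale (counts divided by effective library size), 15 genes had every hemin library above every vehicle library and 1 had every hemin library below, against 24.1% and 24.8% of all genes, 48.9% in either direction. Pdia3, Syvn1 and Sec61g stood apart on that scale although their FPKM values, given below, overlapped. Derl2, Edem3 and Sec63 went the other way: they overlapped on that scale, although every hemin FPKM lay below every vehicle FPKM. The split between higher and lower thus depended on the scaling.

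Herpud1, Atf6, Xbp1 and Hspa5 differed by at least 2-fold, while the other 6 called genes, Ern1, Edem1, Hsp90b1, Sec61a1, P4hb and Canx, differed by less. The count depended on single libraries: it was 5 without vehicle replicate 2, 6 without vehicle replicate 1, 6 without vehicle replicate 3, 6 without hemin replicate 2, and 11 without hemin replicate 1. Without hemin replicate 3, P4hb and Sec61a1 lost their calls. The count over all genes moved too: 2072 genes rose with all libraries. Without vehicle replicates 1, 2 and 3, 1461, 1442 and 1793 genes rose. Without hemin replicates 1, 2 and 3, 2212, 1545 and 1892 genes rose. With library totals as the only scaling, 5 of the genes were called higher and 1 lower, and with no filter on low counts 6 were higher and 1 lower. Herpud1, Xbp1, Hspa5, Atf6 and Ern1 were called higher under each of the 15 alternatives.

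**Figure D1:**
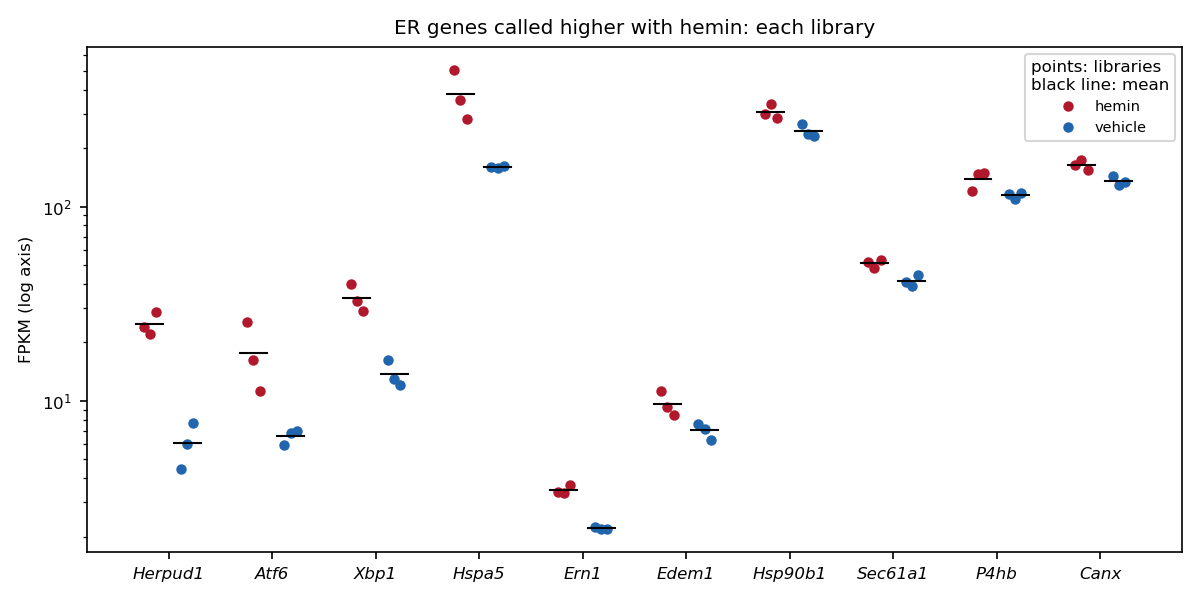
FPKM (fragments scaled by transcript length and library size, log axis) of the 10 ER genes called higher, in order of fold change, with each point a library and each black line the mean of 3 libraries, hemin in red and vehicle in blue. Hemin and vehicle points do not overlap for any of the 10 genes, and the hemin points of Hspa5 and Atf6 spread more widely than their vehicle points.

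The libraries were of like depth. The authors' expected counts, which estimate how many reads each transcript gave, totalled 6463460 to 6523639 in hemin libraries and 6339966 to 6390691 in vehicle libraries. The 31 genes together summed to 2174 to 2340 FPKM in hemin libraries and 1847 to 1936 FPKM in vehicle libraries. Depth differed widely among them. Hsp90b1 had 22364 counts over the hemin libraries and 17861 over the vehicle libraries. Ssr2 had the fewest, 59.7 over the hemin libraries and 45.8 over the vehicle libraries, followed by Sdf2l1 with 158 over the hemin libraries and 226 over the vehicle libraries.

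Of 10 OPC markers tested, 8 fell with hemin, and their summed level was 410 to 620 FPKM in hemin libraries and 1235 to 1493 FPKM in vehicle libraries. Summed microglial markers were 24.3 to 25.7 FPKM in hemin libraries and 9.98 to 18.1 FPKM in vehicle libraries, with 1 of 7 tested called higher. Summed neuronal markers were 87.6 to 134 FPKM in hemin libraries and 172 to 206 FPKM in vehicle libraries, with 2 of 8 called lower. For astrocytes the sums were 380 to 514 FPKM in hemin libraries and 459 to 550.1 FPKM in vehicle libraries, with 1 of 8 markers called higher and 3 lower. Oligodendrocyte markers summed to 25.9 to 36.9 FPKM in hemin libraries and 31.6 to 52.3 FPKM in vehicle libraries, with 1 of 4 tested called lower and Mog at 0 throughout. Vascular and fibroblast markers summed to 7.62 to 20.1 FPKM in hemin libraries and 4.22 to 9.77 FPKM in vehicle libraries, with 1 of 6 tested (Pecam1) called higher. These shifts run alongside every hemin result below, and their part in those results was not tested. In bulk RNA, fewer cells of a type and less RNA per cell cannot be told apart.

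The sensors and XBP1 were the one role in which every gene rose, 3 of 3, with a median log2 fold change of 1.35. Over all genes tested, 16.2% were called higher. Ern1 (gene identifier 78943) encodes IRE1α, the kinase and endoribonuclease that splices Xbp1. Its level was 3.38, 3.36 and 3.68 FPKM in hemin libraries, against 2.25, 2.18 and 2.19 FPKM in vehicle libraries. The groups stood well apart, with little spread inside either. Ern1 rose 1.63-fold, a log2 fold change of 0.70 ± 0.15 (SE), with an edgeR adjusted p of 0.0105, and kept its call under each alternative at an adjusted p of up to 0.0462.

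Atf6 (226641), whose protein is cut by Golgi proteases to release a transcription factor for chaperone genes, had the widest spread among hemin libraries of the called genes. Its level was 25.5, 16.2 and 11.2 FPKM in hemin libraries, against 5.95, 6.84 and 6.98 FPKM in vehicle libraries. Hemin replicate 1 was the highest and replicate 3 the lowest, still above every vehicle library. The mean was 17.6 ± 7.26 FPKM with hemin and 6.59 ± 0.559 FPKM with vehicle (SD, n = 3 each). Atf6 rose 2.79-fold, with a log2 fold change of 1.48 ± 0.30 and an edgeR adjusted p of 0.00891. Its log2 fold change lay between 1.08 and 1.74 when single libraries were left out.

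Xbp1 (22433) encodes the transcription factor whose active form is made from the spliced mRNA. Its summed level was 40.0, 32.6 and 28.9 FPKM in hemin libraries, against 16.2, 13.01 and 12.1 FPKM in vehicle libraries. Every hemin library was above every vehicle library by a wide margin. Xbp1 rose 2.55-fold, with a log2 fold change of 1.35 ± 0.18 and an edgeR adjusted p of 0.00207.

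IRE1α removes a stretch of 26 bases from the Xbp1 mRNA, cutting at 2 small stem-loops, and because 26 leaves a remainder of 2 on division by 3, the reading frame changes. Both forms around that stretch are shown because the deposited transcripts of Xbp1 differ in length by the same number of bases. The sequence is from the GENCODE transcript Xbp1-201 on GRCm38 chromosome 11, bases 815 to 840 of the transcript, with 30 bases on each side. Capitals mark the stretch that splicing removes. Stem-loops with a loop of 7 bases and a perfect stem of 5 pairs, with these loop letters, occur at 2 places in this transcript, with loops CCGCAGC and CTGCAGC.
Xbp1 with the stretch: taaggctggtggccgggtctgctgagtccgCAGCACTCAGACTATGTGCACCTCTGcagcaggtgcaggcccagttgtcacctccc
Xbp1 without the stretch: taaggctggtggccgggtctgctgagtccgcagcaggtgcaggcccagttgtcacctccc

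A 2264-base Xbp1 transcript was listed at 32.6, 20.8 and 16.1 FPKM in hemin libraries and at 16.2, 13.01 and 12.1 FPKM in vehicle libraries. A 2238-base transcript, shorter by 26 bases and whose RefSeq record is known as the spliced form, was listed at 7.38, 11.8 and 12.8 FPKM in hemin libraries. In the vehicle libraries that shorter transcript was not listed, which sets it to 0 in all 3. It held 18.3%, 35.8% and 43.8% of the gene's expected count in hemin replicates 1, 2 and 3. The share was thus lowest in replicate 1, the library with the highest total Xbp1. The forms share all of their sequence but this stretch, so the reads over it decide how all others were apportioned. Their number is not in the tables, so the shares carry no interval and no test, and a value of 0 can come from the estimation.

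**Figure D2:**
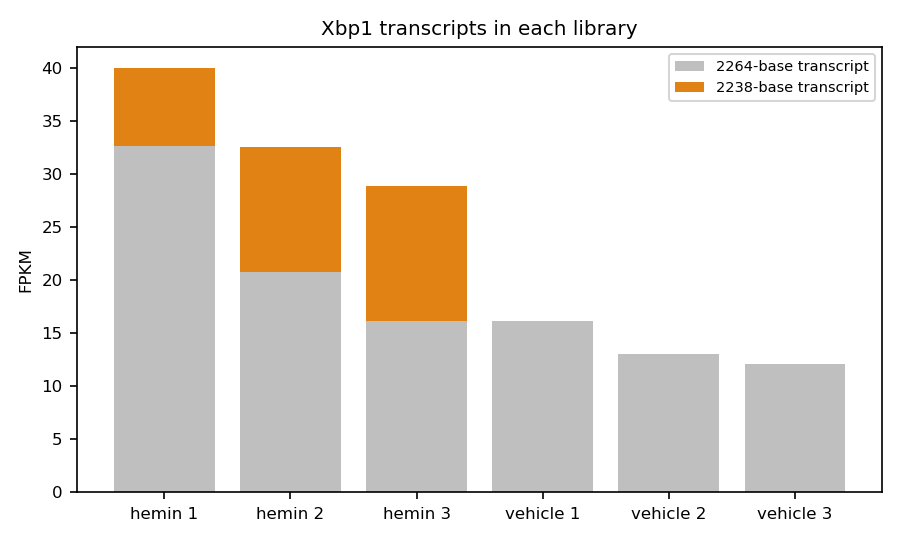
FPKM of the Xbp1 transcripts in each library as stacked bars, hemin libraries on the left and vehicle libraries on the right, grey for the 2264-base transcript and orange for the 2238-base one. The orange part appears in the 3 hemin bars (7.38 to 12.8 FPKM) and in no vehicle bar, while the grey part is tallest in hemin replicate 1.

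Of 4 Hsp70 and Hsp90 family chaperones of the lumen and their partners, Hspa5 and Hsp90b1 rose by edgeR, beside 16.2% of all genes tested. Both also rose by DESeq2 and by limma on log2(FPKM + 1). At an unadjusted p below 0.05 edgeR had 3 higher. By each of these, 0 of 4 fell. Hspa5 (14828) encodes BiP, the Hsp70 chaperone that also holds the UPR sensors inactive. Its level was 505, 352 and 282 FPKM in hemin libraries, against 160.3, 157 and 162 FPKM in vehicle libraries. The vehicle libraries lay close together, while the hemin libraries were all higher and differed among themselves, replicate 1 being highest. Hspa5 rose 2.48-fold, with a log2 fold change of 1.31 ± 0.22 and an edgeR adjusted p of 0.00443. Over the 15 alternatives the log2 fold change lay between 1.01 and 1.497.

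Hsp90b1 (22027), which encodes GRP94, the lumenal Hsp90, was at 300.5, 337 and 285 FPKM in hemin libraries, against 266, 237 and 229.7 FPKM in vehicle libraries. The groups did not overlap but lay closer than for Hspa5. It rose 1.31-fold, with a log2 fold change of 0.39 ± 0.10 and an edgeR adjusted p of 0.0255. The call was lost without vehicle replicate 2, vehicle replicate 3 or hemin replicate 2, with totals alone and after quantile normalization, and the adjusted p spanned 0.00613 to 0.33 over the alternatives.

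Hyou1 (12282) encodes the large Hsp70-like partner of BiP, GRP170. It was at 23.5, 26.8 and 24.2 FPKM in hemin libraries, against 21.0, 20.6 and 22.2 FPKM in vehicle libraries, and did not pass the test, with a log2 fold change of 0.27 ± 0.09 and an edgeR adjusted p of 0.0576. It did pass without hemin replicate 1 and with a mean count of at least 20 as the filter, within a range of 0.0384 to 0.183. Sdf2l1 (64136), a small stress-inducible partner of the chaperone complex, was at 4.05, 7.02 and 6.50 FPKM in hemin libraries, against 8.14, 10.4 and 6.46 FPKM in vehicle libraries. Its groups overlapped, and its log2 fold change of -0.46 ± 0.28 had an edgeR adjusted p of 0.246.

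Promoter windows show a letter pattern shared by several of these genes. The ER stress response element (ERSE), known as a site for ATF6 with NF-Y, was searched as CCAAT, a gap of 9 bases, then CCACG, on both strands. RefSeq windows of GRCm38.p6, from 250 bases before to 50 after the start, were found for 25 of the 31 genes (26 windows). The pattern was in windows of 7 of these genes and in 39 of all 32851 windows (0.119%). The matches are printed in the direction of the pattern, with capitals for the searched letters, to show how the gap differs between genes. Positions are counted from the start of transcription.
Hspa5, chromosome 2, plus strand of the gene, -65 to -47: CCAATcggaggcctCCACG
Hsp90b1, chromosome 10, plus strand of the gene, -212 to -194: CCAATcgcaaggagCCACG
Hsp90b1, chromosome 10, minus strand of the gene, -107 to -89: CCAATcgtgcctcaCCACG
Canx, chromosome 11, plus strand of the gene, -145 to -127: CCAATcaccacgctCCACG
Calr, chromosome 8, minus strand of the gene, -162 to -144: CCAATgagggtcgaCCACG
Creld2, chromosome 15, minus strand of the gene, -126 to -108: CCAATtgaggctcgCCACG
Pdia6, chromosome 12, plus strand of the gene, -98 to -80: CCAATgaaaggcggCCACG
Syvn1, chromosome 19, plus strand of the gene, -44 to -26: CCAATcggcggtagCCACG

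Of the 7 genes with the pattern, Hspa5, Hsp90b1 and Canx rose, and the log2 fold changes ran between -0.05 and 1.31 with a median of 0.29. Of the other 18 genes with a window, 5 rose, with log2 fold changes between -0.51 and 2.08 and a median of 0.04. A match is a description of letters, and the difference between these sets was not tested. The window of Hspa5 is shown whole because it holds the pattern closest to the start among the genes that rose.
Hspa5 promoter, GRCm38 chr2:34771840-34772139, plus strand: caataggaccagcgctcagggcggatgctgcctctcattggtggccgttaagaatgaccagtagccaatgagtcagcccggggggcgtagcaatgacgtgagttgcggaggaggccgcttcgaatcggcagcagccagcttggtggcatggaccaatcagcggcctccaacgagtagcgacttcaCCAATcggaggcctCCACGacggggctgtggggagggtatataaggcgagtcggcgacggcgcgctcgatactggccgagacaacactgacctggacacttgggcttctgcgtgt

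Among the disulfide isomerases, P4hb was the only 1 of 4 that rose by edgeR, beside 16.2% of all genes tested. DESeq2 called 2 higher, limma on log2(FPKM + 1) called 0 higher, and at an unadjusted p below 0.05 edgeR had 2 higher. By each of these, 0 of 4 fell. P4hb (18453) encodes protein disulfide isomerase itself. It was at 120.2, 147 and 149.6 FPKM in hemin libraries, against 116, 109 and 117 FPKM in vehicle libraries. Hemin replicate 1 lay just above the highest vehicle library and replicates 2 and 3 well above. P4hb rose 1.26-fold, with a log2 fold change of 0.33 ± 0.09 and an edgeR adjusted p of 0.0322. The call was the least stable of the 10: it held in 4 of 15 alternatives, was lost without any one library other than hemin replicate 1, and the adjusted p spanned 0.00691 to 0.422.

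Pdia3 (14827), the isomerase that works with the lectin chaperones, was at 178, 210.2 and 209 FPKM in hemin libraries, against 179.6, 164 and 173 FPKM in vehicle libraries. Its log2 fold change of 0.26 ± 0.09 missed the threshold with an edgeR adjusted p of 0.0574. Pdia3 passed in 3 of 15 alternatives: without hemin replicate 1 (0.0187), with DESeq2 (0.0457) and with a mean count of at least 20 (0.0426). The adjusted p spanned 0.0187 to 0.762. Pdia4 (12304), a multidomain isomerase, was at 33.0, 42.6 and 41.1 FPKM in hemin libraries and 44.6, 42.2 and 35.2 FPKM in vehicle libraries, a log2 fold change of -0.01 ± 0.12. Pdia6 (71853), known to act on the IRE1 sensor, was at 81.9, 86.9 and 87.9 FPKM in hemin libraries and 94.2, 88.4 and 78.7 FPKM in vehicle libraries, a log2 fold change of 0.03 ± 0.09. Groups of Pdia4 and Pdia6 overlapped.

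The lectin chaperones bind glycoproteins that are still folding, calnexin in the membrane and calreticulin in the lumen. Canx (12330), for calnexin, was at 164, 174 and 154 FPKM in hemin libraries, against 143, 129 and 134 FPKM in vehicle libraries, without overlap. Canx rose 1.26-fold, with a log2 fold change of 0.33 ± 0.09 and an edgeR adjusted p of 0.0322. It was called in 7 of 15 alternatives, was lost without any one vehicle library or hemin replicate 2, and its adjusted p spanned 0.0125 to 0.442. Calr (12317), for calreticulin, was at 257, 301 and 327 FPKM in hemin libraries, against 329, 304 and 312 FPKM in vehicle libraries. The groups overlapped, and its log2 fold change was -0.05 ± 0.09 with an edgeR adjusted p of 0.744.

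**Figure D3:**
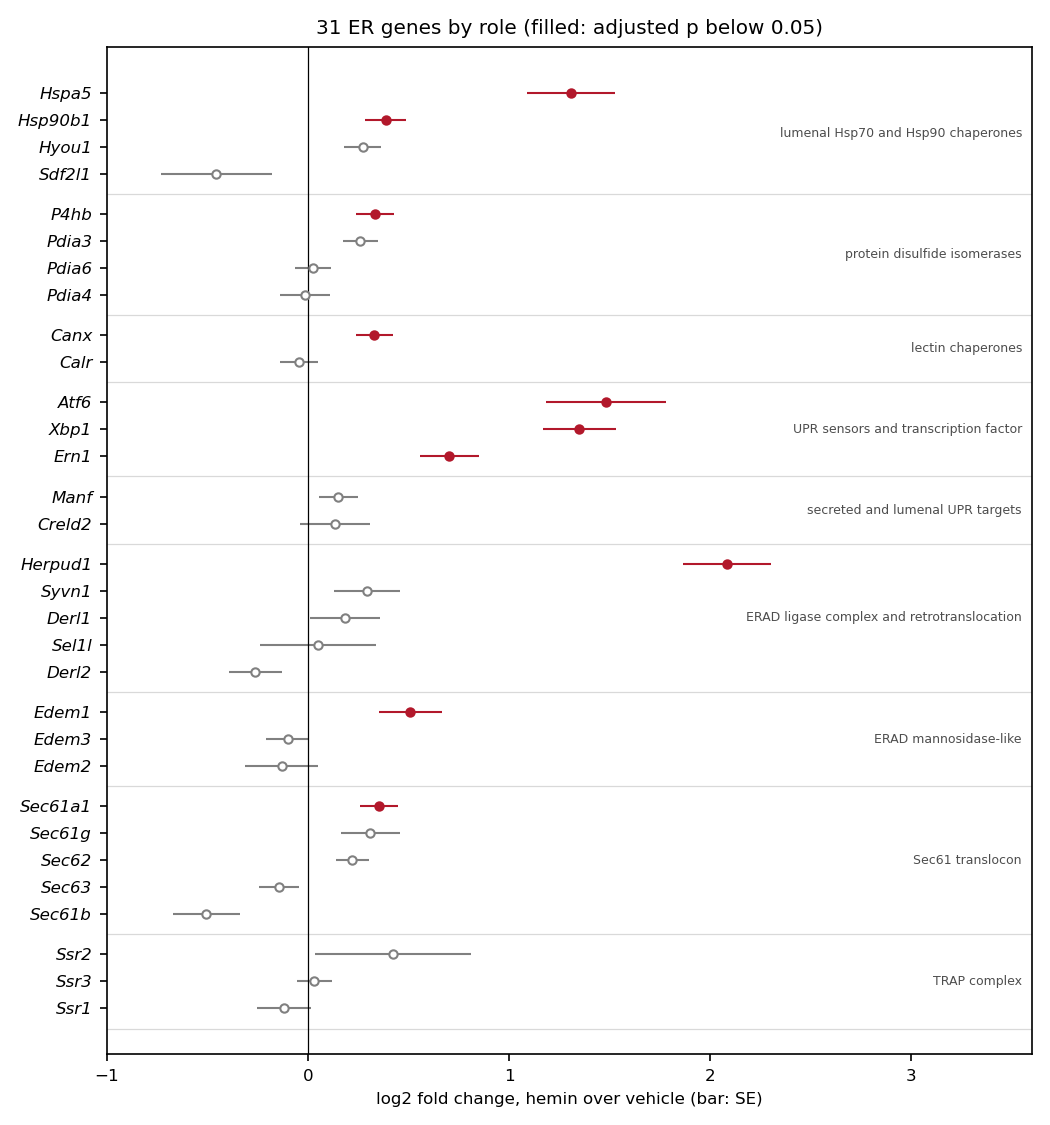
Log2 fold change, hemin over vehicle, of each of the 31 ER genes with its standard error as a bar, grouped by role, filled red where the edgeR adjusted p was below 0.05. The sensors with XBP1 lie between 0.70 and 1.48, Herpud1 lies farthest to the right at 2.08, and most other genes lie within 0.5 of 0.

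In the degradation ligase complex, Herpud1 was the gene with the greatest fold change among the 31, and 0 of 5 fell, by edgeR, by DESeq2, by limma on log2(FPKM + 1) or at an unadjusted p below 0.05. By edgeR, 15.7% of all genes tested fell. Herpud1 (64209) encodes a short-lived membrane protein that organises the ligase complex. Its level was 24.1, 22.1 and 28.6 FPKM in hemin libraries, against 4.44, 6.03 and 7.74 FPKM in vehicle libraries. The lowest hemin library was far above the highest vehicle library. Herpud1 rose 4.24-fold, with a log2 fold change of 2.08 ± 0.22 and an edgeR adjusted p of 0.000902. Some counts of Herpud1, Hyou1, Sec63 and Ssr2, each listed as 1 transcript, were not whole numbers (tolerance 0.005), so some of their reads were shared with another feature.

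The Herpud1 window held a related pattern, ERSE-II, searched as ATTGG, a gap of 1 base, then CCACG, which was in 12 of all 32851 windows (0.0365%) and in no other window of the 25 genes. It is shown because this gene differed most, with capitals for the searched letters at -52 to -42.
Herpud1 promoter, GRCm38 chr8:94386179-94386478, plus strand: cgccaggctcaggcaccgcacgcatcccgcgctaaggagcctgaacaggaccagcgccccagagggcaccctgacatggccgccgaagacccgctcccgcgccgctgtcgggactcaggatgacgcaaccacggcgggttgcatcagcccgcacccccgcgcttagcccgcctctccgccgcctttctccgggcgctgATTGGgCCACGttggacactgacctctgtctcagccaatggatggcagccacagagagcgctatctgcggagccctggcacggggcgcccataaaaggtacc

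An XBP1 core pattern, TGACGTGG, was in 0 of the 26 windows and in 222 of all windows (0.676%). A pattern of the amino acid response element, known as a site for ATF4, searched as TGATG, a gap of 1 base, then AAT, was in 0 of the 26 windows and in 317 of all windows (0.965%). Both were searched on both strands, and the absence of these letters in a window of this length says nothing of the factor. The last letter of the ATF4 pattern was fixed as T, so forms with another last letter were not counted. The Herpud1 window above holds gttgcatca, which on the other strand differs from that pattern only in the last letter.

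Sel1l (20338) and Syvn1 (74126) encode the adaptor and the ubiquitin ligase HRD1 at the core of the complex. Sel1l was at 47.0, 27.6 and 20.8 FPKM in hemin libraries, against 31.8, 34.5 and 29.97 FPKM in vehicle libraries. Hemin replicate 1 was above every vehicle library and hemin replicates 2 and 3 below them all, so that the log2 fold change was 0.05 ± 0.29 with all libraries and -0.38 without hemin replicate 1, not called either way. Syvn1 was at 12.2, 9.15 and 9.26 FPKM in hemin libraries, against 9.21, 7.97 and 8.98 FPKM in vehicle libraries, with a log2 fold change of 0.29 ± 0.16 and an edgeR adjusted p of 0.208. Derl1 (67819) and Derl2 (116891) encode derlins, membrane proteins of the retrotranslocation step. Derl1 was at 25.3, 19.0 and 18.3 FPKM in hemin libraries and 17.5, 18.1 and 21.6 FPKM in vehicle libraries, overlapping. Derl2 was at 7.82, 7.40 and 7.40 FPKM in hemin libraries, each below its 10.1, 10.0 and 8.14 FPKM in vehicle libraries, yet its log2 fold change of -0.26 ± 0.13 had an edgeR adjusted p of 0.168.

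The EDEM proteins mark misfolded glycoproteins for degradation by trimming mannose. Edem1 (192193) was at 11.3, 9.25 and 8.45 FPKM in hemin libraries, against 7.64, 7.19 and 6.32 FPKM in vehicle libraries, with no overlap. Edem1 rose 1.42-fold, with a log2 fold change of 0.51 ± 0.16 and an edgeR adjusted p of 0.0413. It was called in 6 of 15 alternatives, was lost without any one library other than hemin replicate 3, and its adjusted p spanned 0.0266 to 0.097. Edem2 (108687) was at 4.94, 7.31 and 5.43 FPKM in hemin libraries and 6.99, 6.39 and 6.68 FPKM in vehicle libraries. Edem3 (66967) was at 15.8, 15.1 and 13.2 FPKM in hemin libraries and 16.3, 16.7 and 16.0 FPKM in vehicle libraries. Neither passed the test, with log2 fold changes of -0.13 ± 0.18 and -0.10 ± 0.11, so the call within this family lay with Edem1, though differences between family members were not tested.

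Creld2 (76737) and Manf (74840) encode secreted or lumenal proteins that are known targets of ER stress. Creld2 was at 12.1, 15.9 and 19.1 FPKM in hemin libraries and 14.4, 15.9 and 14.1 FPKM in vehicle libraries, a log2 fold change of 0.14 ± 0.17. Manf was at 35.2, 39.1 and 44.1 FPKM in hemin libraries and 35.6, 37.1 and 37.7 FPKM in vehicle libraries, a log2 fold change of 0.15 ± 0.10. Both genes overlapped between groups and neither passed the test, with edgeR adjusted p of 0.587 for Creld2 and 0.277 for Manf.

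The Sec61 channel consists of a pore subunit, Sec61α, with the small subunits Sec61β and Sec61γ, and works with Sec62 and Sec63 on some substrates. Sec61a1 (53421), for the pore, was at 51.8, 48.2 and 53.2 FPKM in hemin libraries, against 41.1, 38.8 and 44.3 FPKM in vehicle libraries, without overlap. Sec61a1 rose 1.28-fold, with a log2 fold change of 0.35 ± 0.09 and an edgeR adjusted p of 0.0263. It was called in 10 of 15 alternatives and lost without vehicle replicate 1, vehicle replicate 2 or hemin replicate 3, with its adjusted p spanning 0.0156 to 0.101.

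Sec61b (66212) was the only one of the 31 with every hemin library below every vehicle library on the log2 CPM scale. It was at 65.6, 47.5 and 52.3 FPKM in hemin libraries, against 81.8, 76.5 and 88.4 FPKM in vehicle libraries. Its log2 fold change of -0.51 ± 0.17, a level 1.42-fold lower with hemin, narrowly missed the threshold with an edgeR adjusted p of 0.0533. It was called lower in 7 of 15 alternatives, among them DESeq2, limma on FPKM, totals alone and the fit without hemin replicate 1, and the adjusted p spanned 0.01 to 0.152. The ratio of Sec61b to Sec61a1 in FPKM was 1.27, 0.985 and 0.984 in hemin libraries, against 1.99, 1.97 and 2.00 in vehicle libraries. The mean ratio was 1.08 ± 0.162 with hemin and 1.99 ± 0.0132 with vehicle (SD, n = 3 each). This is a description from which no p-value is read, since the pair was chosen for its values.

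Sec61g (20335), the other small subunit, was at 37.2, 42.2 and 50.7 FPKM in hemin libraries and 34.3, 40.4 and 34.6 FPKM in vehicle libraries, a log2 fold change of 0.31 ± 0.15 with an edgeR adjusted p of 0.147. Sec62 (69276) was at 41.1, 40.2 and 40.3 FPKM in hemin libraries, all above its 35.0, 37.8 and 35.4 FPKM in vehicle libraries, with a log2 fold change of 0.22 ± 0.08 and an edgeR adjusted p of 0.08. Sec63 (140740), the membrane J-protein that brings BiP to the channel, was at 18.1, 17.2 and 16.6 FPKM in hemin libraries and 18.4, 20.6 and 20.4 FPKM in vehicle libraries, a log2 fold change of -0.14 ± 0.10. Of the 5 channel genes, 1 rose by edgeR, Sec61a1 (20%, close to the 16.2% over all genes tested). The rest had values on either side of 0.

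The TRAP complex sits beside the channel and helps some signal sequences enter. Of its 3 subunits among the 31 genes, 0 rose and 0 fell, by edgeR, by DESeq2, by limma on log2(FPKM + 1) or at an unadjusted p below 0.05. By edgeR, 16.2% of all genes tested rose and 15.7% fell. Ssr4, a further subunit that was read with the lists below, was not called by edgeR either. Its log2 fold change was 0.26 ± 0.15, with an edgeR adjusted p of 0.224. Ssr3 (67437) was at 167, 155 and 156 FPKM in hemin libraries and 160.1, 163 and 163 FPKM in vehicle libraries, a log2 fold change of 0.03 ± 0.09. Ssr1 (107513) was at 25.5, 19.0 and 20.6 FPKM in hemin libraries and 24.0, 24.5 and 24.97 FPKM in vehicle libraries, a log2 fold change of -0.12 ± 0.14, and was called lower without hemin replicate 1 at an edgeR adjusted p of 0.0207, within a range of 0.0207 to 0.907. Ssr2 (66256), the most thinly counted of the 31, was at 2.55, 2.24 and 1.41 FPKM in hemin libraries and 1.01, 1.69 and 2.04 FPKM in vehicle libraries. Its groups overlapped, and its log2 fold change of 0.42 ± 0.39 had an edgeR adjusted p of 0.445.

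Hemin libraries did not all lead on the same genes. In FPKM, hemin replicate 1 was the highest of the hemin libraries for 15 of the 31 genes, replicate 2 for 7 and replicate 3 for 9. Hspa5, Atf6, Xbp1, Sel1l, Derl1 and Edem1 were highest in replicate 1, while Herpud1, Ern1, Calr, Creld2, Manf and Sec61g were highest in replicate 3. The median difference of the 31 genes from the vehicle mean was nevertheless alike, at 0.18, 0.17 and 0.17 on the log2 CPM scale in hemin replicates 1, 2 and 3. The median SD of a gene's log2 CPM was 0.17 among hemin libraries and 0.10 among vehicle libraries for the 31 genes, and 0.24 among hemin libraries and 0.16 among vehicle libraries for all genes tested.

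**Figure D4:**
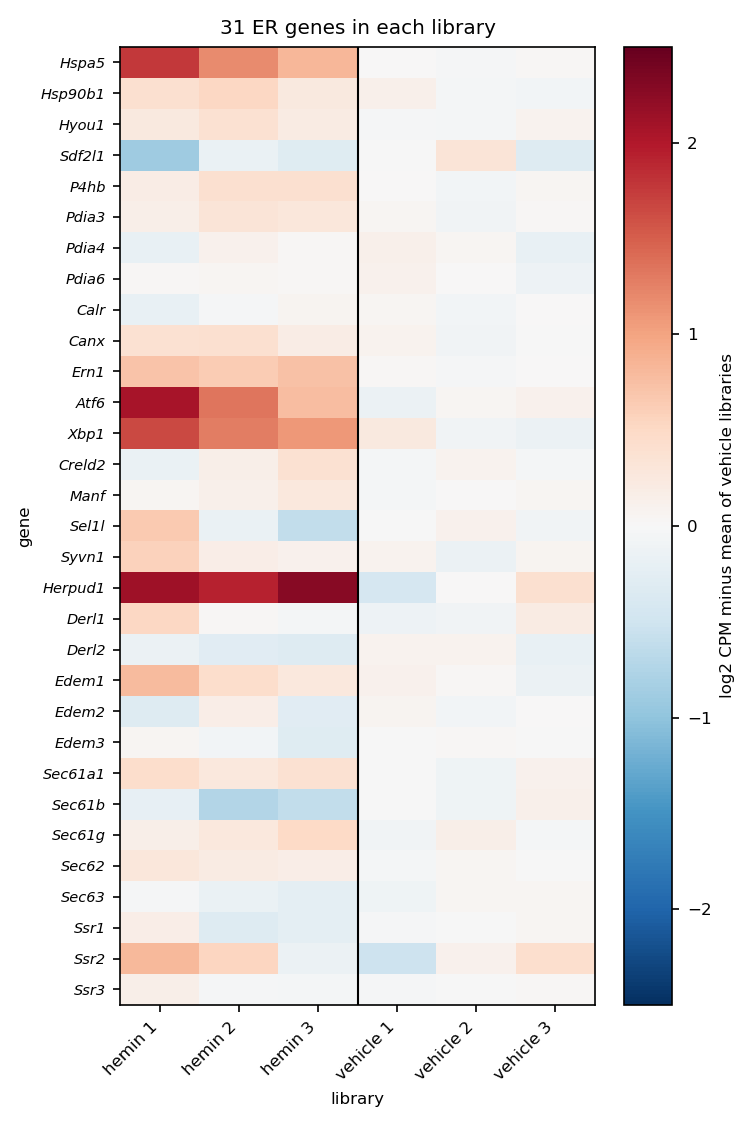
Log2 CPM of each of the 31 ER genes minus the mean of the vehicle libraries, a row for each gene and a column for each library, hemin left of the black line and vehicle right of it, red for above and blue for below the vehicle mean. Herpud1, Xbp1, Atf6 and Hspa5 are red in every hemin column, Sec61b is blue in every hemin column, and Sel1l is red in hemin replicate 1 and blue in hemin replicates 2 and 3.

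Further genes of the same pathways were read from lists chosen by function. Of 105 such genes tested, 35 rose (33.3%) and 4 fell, with a median log2 fold change of 0.26, beside 16.2% higher and 15.7% lower over all genes tested. The 35 include all 10 genes of the PERK and eIF2α output, and without that list 25 of 95 rose (26.3%) and 4 fell, with a median of 0.23. The PERK and eIF2α output genes rose with a median log2 fold change of 3.49 and a range of 0.63 to 6.45. The list is named for PERK, but whether any kinase acted on eIF2α, and which one, was not tested. Ppp1r15a, the phosphatase subunit that ends the translational block, rose 18.7-fold, at 77.7 ± 20.7 FPKM with hemin and 4.32 ± 0.72 FPKM with vehicle (edgeR adjusted p 0.000191). Ddit3, the transcription factor CHOP, rose 15.4-fold, at 104 ± 19.1 FPKM with hemin and 7.17 ± 1.69 FPKM with vehicle (edgeR adjusted p 0.000191). Atf3, a transcription factor downstream of ATF4, rose by a log2 fold change of 6.45 ± 0.41, at 59.0 ± 25.1 FPKM with hemin and 0.70 ± 0.104 FPKM with vehicle (edgeR adjusted p 0.000199).

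Among 9 tested genes for further UPR sensors, proteases and factors, 3 rose (33.3%) and 1 fell. Over all genes tested, 16.2% were called higher and 15.7% lower. Eif2ak3, which encodes PERK, rose 2.04-fold, at 17.97 ± 0.562 FPKM with hemin and 9.17 ± 1.36 FPKM with vehicle (edgeR adjusted p 0.00161). Wfs1, an ER membrane protein mutated in Wolfram syndrome, rose 2.15-fold (adjusted p 0.00442). Creb3l1, a membrane-bound transcription factor named after its values were seen, rose 2.00-fold (0.0173). Mbtps1, the Golgi site-1 protease that cuts ATF6, fell 1.46-fold, at 19.1 ± 1.48 FPKM with hemin and 28.8 ± 1.22 FPKM with vehicle (edgeR adjusted p 0.00626).

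Of 22 tested genes for further ERAD, 8 rose (36.4%) and 0 fell by edgeR, beside 16.2% higher and 15.7% lower over all genes tested. DESeq2 called 8 higher and 0 lower, limma on log2(FPKM + 1) called 8 and 1, and at an unadjusted p below 0.05 edgeR had 10 and 2. Ube2g2, a ubiquitin-conjugating enzyme, rose 2.34-fold, at 40.9 ± 1.16 FPKM with hemin and 18.1 ± 2.06 FPKM with vehicle (edgeR adjusted p 0.000767). Selenos, a selenoprotein that recruits the p97 ATPase, rose 1.91-fold (0.00252), and Ubxn4, another p97 adaptor, rose 2.13-fold (0.00383). Rnf5, a membrane ubiquitin ligase, was at 39.5 ± 8.39 FPKM with hemin and 54.6 ± 3.63 FPKM with vehicle and did not pass the test, with an edgeR adjusted p of 0.0747.

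For further folding enzymes, 5 of 29 tested rose (17.2%) and 1 fell, a share of rises close to the 16.2% over all genes tested. Dnajb9, the J-protein ERdj4 that works with BiP, rose 3.76-fold, at 40.8 ± 5.65 FPKM with hemin and 11.2 ± 0.451 FPKM with vehicle (edgeR adjusted p 0.000199). Ero1a, the oxidase that recharges the disulfide isomerases, rose 4.97-fold, at 54.0 ± 27.6 FPKM with hemin and 11.4 ± 0.435 FPKM with vehicle (edgeR adjusted p 0.00349). Erp44 (1.40-fold), Txndc12 (1.29-fold) and Qsox1 (1.43-fold) were the others that rose, and were named after their values were seen. Dnajc10, the disulfide reductase ERdj5, fell 1.46-fold, at 19.9 ± 0.559 FPKM with hemin and 30.1 ± 2.11 FPKM with vehicle (edgeR adjusted p 0.00388).

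For further targeting and translocation, 5 of 17 tested rose (29.4%) and 1 fell, beside 16.2% and 15.7% over all genes tested. Srprb, a subunit of the signal recognition particle receptor, rose 1.57-fold, at 24.8 ± 1.61 FPKM with hemin and 16.3 ± 0.671 FPKM with vehicle (edgeR adjusted p 0.00278), and Srp14, a subunit of the particle, rose 1.60-fold (0.00776). Srpr (1.83-fold), Srp68 (1.38-fold) and Tram2 (2.27-fold), named after their values were seen, were the others that rose. Spcs3, a signal peptidase subunit, fell 1.34-fold, at 23.5 ± 1.04 FPKM with hemin and 32.6 ± 0.832 FPKM with vehicle (edgeR adjusted p 0.0123). For N-glycosylation and glucose trimming, 4 of 18 tested rose (22.2%, beside the same 16.2%) and 1 fell. Prkcsh, the glucosidase II β subunit, rose 1.41-fold (edgeR adjusted p 0.00502), and Stt3a, a catalytic subunit of the oligosaccharyltransferase, rose 1.44-fold (0.0327). Rpn1 (1.28-fold) and Ostc (1.27-fold), of the same transferase and named after their values were seen, were the others that rose, and Alg2, a mannosyltransferase, fell 1.37-fold (0.00898).

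Besides Xbp1, IRE1 is known to cut other mRNAs at the ER membrane. Of 6 tested genes reported as such substrates in mouse, 0 rose and 0 fell by edgeR, by DESeq2 or by limma on log2(FPKM + 1), and at an unadjusted p below 0.05 edgeR had 1 higher and 0 lower. By edgeR, 16.2% of all genes tested were called higher and 15.7% lower, so 0 of 6 says little. Their log2 fold changes ran between -0.16 and 0.60, and 5 of the 6 were positive. Scara3, Col6a1 and Pdgfrb were at low levels, with vehicle means of 2.51, 2.48 and 0.76 FPKM. Cutting of these mRNAs was not tested. Bloc1s1, the most used of these reporters, was at 36.7 ± 3.51 FPKM with hemin and 34.0 ± 2.84 FPKM with vehicle (SD, n = 3 each), with a log2 fold change of 0.18 ± 0.16 and an edgeR adjusted p of 0.419. Scara3, a scavenger receptor, was the only one of the 6 with a negative value, a log2 fold change of -0.16 ± 0.30 (edgeR adjusted p 0.725).

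**Figure D5:**
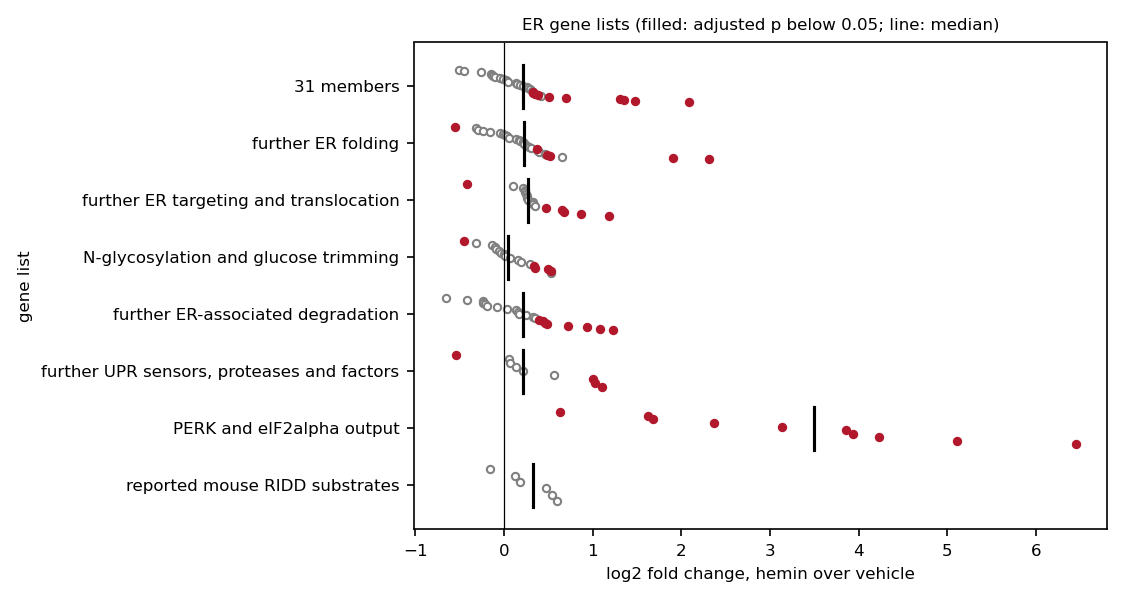
Log2 fold change, hemin over vehicle, of each tested gene of the 31 ER genes (top row) and of the further lists, filled red where the edgeR adjusted p was below 0.05, with a black line at each list's median. The PERK and eIF2α output lies to the right with a median of 3.49, while the medians of the other rows lie between 0.04 and 0.33.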

How the data were processed

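Trizol RNA was enriched for mRNA and PCR-amplified into Illumina libraries, per the labels' protocols. Whether they keep strand was not given in the sources used here. Bowtie 0.12.2 and RSEM are named in the submitters' processing notes, which list mm8 and mm9 without saying which was used, so no coordinate of a measured feature is printed. The authors deposited, per library, expected counts (estimated reads per transcript, not scaled for depth, need not be whole) and FPKM (scaled by length and library size), per the file headers. Features at 0 are not listed. Unannotated features were not used here.

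Transcript values were summed to genes, and the summed expected counts rounded to whole numbers. Of 18749 genes, 18710 had a symbol in RefSeq's gene table (GRCm38.p6). In R 4.3.3, edgeR 4.0.16 filtered genes (filterByExpr by group), scaled them (TMM) and ran glmQLFit and glmQLFTest, two-sided, on hemin against vehicle with no covariate, adjusted by Benjamini-Hochberg over 12782 genes. The standard error is the log2 fold change divided by the square root of F. Groups were called apart on log2 CPM. The script was tested on simulated counts. Alternatives used DESeq2 1.42.0, limma 3.58.1, other scaling and filters, a replicate block, and each library left out.

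The 31 genes, the further lists and the rule for names were chosen with earlier results of these data known. Each of the 31 is given, and per list up to 3 called genes with the smallest p and the 1 with the smallest p in the other direction. That rule does not cover Bloc1s1, Ssr4 or the genes marked as named after their values were seen. Depth limits precision for genes of few counts, and without molecular identifiers, PCR copies cannot be told from separate molecules.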

Additional observations from a re-analysis of the deposited data

How the results depend on the processing

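The count of the 31 ER genes called higher, 10 by edgeR with TMM, was 5 with library totals alone and 6 with no filter on low counts. The count called lower, 0 with TMM, was 1 with totals alone, with DESeq2, with no filter, with limma on log2(FPKM + 1), with limma on log2(FPKM + 0.1) and with quantile normalization, Sec61b each time. Quantile normalization moved the median log2 fold change of the 31 genes to 0.10, against 0.22. Other ER genes called lower numbered 4 with TMM, 7 with totals alone and 7 with quantile normalization. With totals alone the median log2 fold change of all genes was -0.09, and 1714 genes were called higher and 2582 lower, so that 39.9% of calls were higher, against 50.8% with TMM. Leaving out 1 library at a time gave 5 to 11 of the 31 genes higher, 0 to 2 lower (Sec61b and Ssr1 without hemin replicate 1), a median of 0.19 to 0.29, and 2552 to 4530 genes called in all, the fewest without vehicle replicate 2. Other ER genes numbered 22 to 38 higher and 2 to 9 lower in these fits, with 22 and 2 without vehicle replicate 2 and 9 lower without hemin replicate 1.

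The signs that turned belonged to genes called neither way. Pdia6, Sel1l and Ssr3 had log2 fold changes of -0.064, -0.051 and -0.061 with totals alone, -0.022, -0.091 and -0.023 with limma on log2(FPKM + 1), -0.022, -0.10 and -0.023 on log2(FPKM + 0.1), and -0.14, -0.085 and -0.18 after quantile normalization. With no filter Pdia6 was at -0.015 and Ssr3 at -0.012, and with a mean count of at least 20 Pdia4 was at 0.023. Over the fits without 1 library, Pdia4 ran between -0.084 and 0.068, Pdia6 between -0.016 and 0.096, Calr between -0.11 and 0.018, Creld2 between -0.0058 and 0.27, Sel1l between -0.38 and 0.29, Derl1 between -0.013 and 0.31, and Ssr3 between -0.036 and 0.067. The cause was not tested.

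Same-numbered libraries correlated in their deviations at 0.0655, 0.0898 and 0.151, and other pairs at -0.104 to 0.0207. Each hemin library correlated best with its own number. These weak values do not settle whether replicate numbers pair the samples. With the replicate block, 8 of the 31 genes were called higher and 0 lower, Canx and P4hb being lost, with a median of 0.22, 31 other ER genes higher and 4 lower, 3731 genes in all, and Sel1l at -0.046.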

Other observations

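Of the 31 ER genes, 8 had several transcripts listed, and their shares of a gene's expected count are given as values with no test. The 2534-base transcript of Hspa5 held 96.0%, 95.3% and 91.2% in hemin libraries and 89.3%, 91.8% and 93.1% in vehicle libraries. The 6300-base transcript of Sel1l held 73.8%, 84.5% and 84.1% in hemin libraries and 83.6%, 83.5% and 77.4% in vehicle libraries. The 3103-base transcript of Syvn1 held 66.8%, 26.4% and 51.5% in hemin libraries and 54.1%, 64.4% and 48.8% in vehicle libraries. The 3703-base transcript of Derl2 was not listed in the hemin libraries and held 5.55%, 3.51% and 7.28% in vehicle libraries, from 18.3, 11.7 and 19.7 expected counts.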
